A study of Mus musculus with 8 samples.

Results

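The proteasome subunit genes were examined in testes of Tex19.1-/- mice and of Tex19.1+/- control mice. The set holds every probe whose gene symbol begins with Psma, Psmb, Psmc, Psmd, Psme, Psmf or Psmg followed by a digit, which gave 86 of the 45281 probes of the array, for 49 of its 19057 genes with a symbol of their own. RNA of the whole testis of 4 Tex19.1-/- and 4 Tex19.1+/- males, each 16 days old (16 dpp), was measured on the v2.0 Mouse WG-6 Beadchip of Illumina, an array per animal, and the labels number the animals of a genotype as biological replicates. All 8 animals are given the strain C57BL/6, onto which the Tex19.1 mutation had been crossed over several generations, and no other allele or treatment is named for either genotype. Tex19.1 is a germ cell gene of mammals, and its loss disturbs meiosis in males. At this age the most advanced germ cells are pachytene spermatocytes, and somatic cells such as Sertoli and Leydig cells are part of the tissue, so that fewer cells of a type and less RNA in each cell cannot be told apart.

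The proteasome degrades proteins that carry ubiquitin chains. Its barrel-shaped core particle is built from outer rings of alpha subunits (Psma genes) and inner rings of beta subunits (Psmb genes), some of which carry the proteolytic sites. The regulatory particle that caps the barrel unfolds substrates with a ring of ATPases (Psmc genes) and recognizes and removes ubiquitin with further subunits (Psmd genes). Other caps (Psme genes) and dedicated assembly chaperones (Psmg genes and some Psmd genes) complete the family. In cells exposed to interferon and in immune cells, Psmb8, Psmb9 and Psmb10 replace the catalytic subunits Psmb5, Psmb6 and Psmb7 to form the immunoproteasome. In mouse spermatocytes the alpha subunit Psma8 takes the place of Psma7, its paralog, in a germ cell form of the core.

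Signals are given as log2 normalized signal, and a change is the Tex19.1-/- mean minus the Tex19.1+/- mean on that scale. A probe was counted as expressed when its detection p-value was under 0.01 in at least 1 array, and as called when its limma p, adjusted by the Benjamini-Hochberg method over all 19089 expressed probes, was at most 0.01. Tex19.1 itself (ILMN_2615917) passed the detection limit in 0 of 4 Tex19.1-/- and 4 of 4 Tex19.1+/- animals, at least 4.33-fold lower without the gene (adjusted p = 6.3e-07 from limma), taking as the limit in each array its own value or, where higher, the lowest detected value. The position of the probe relative to the deletion was not determined. The mean signal of an array was 79.0 to 126 in Tex19.1-/- animals and 90.8 to 159 in Tex19.1+/- animals, before normalization. The lowest signal was -112 and -98.7 in Tex19.1+/- replicates 1 and 2, and -37.8 to -29.4 in the other arrays.

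Of the 86 probes 63 were expressed, for 40 of the 49 genes, and 53 of them were detected in all 8 arrays. No probe of Psma1, Psma3, Psma6, Psmb11, Psmc6, Psmd2, Psmd3, Psmd6 or Psmg4 passed the detection limit. Psmb11 is the subunit of the thymus proteasome, whereas the other 8 genes encode general subunits or, for Psmg4, an assembly chaperone, so their probes gave no measurement. The symbol rule also took in Psmc3ip and Psme3ip1, which are not proteasome subunits. Psmc3ip encodes Hop2, a partner of the meiotic strand exchange machinery, and Psme3ip1 a protein that binds the activator Psme3. Without these, 60 expressed probes of 38 genes were left.

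Of the 40 expressed genes 2 passed the test, Psma8 and, outside the proteasome itself, Psmc3ip. Both Psma8 probes and the Psmc3ip probe were called lower in Tex19.1-/- testes, against 1.63% of all expressed probes, and 0 of 63 were called higher, against 0.141%. At an unadjusted p under 0.05, 9 of the 63 were lower and 3 higher, against 7.93% and 5.87% of all expressed probes. In 5 of the 63 every Tex19.1-/- animal lay below every Tex19.1+/- animal, against 6.06%, and in 3 every Tex19.1-/- animal lay above, against 4.18%. The median change was -0.021 over the 63 probes and 0.024 over all expressed probes. With Psma8 and the 2 genes that are not subunits left out, 58 probes remained, of which 0 were called (6 lower and 3 higher at an unadjusted p under 0.05), and their changes ran from -0.41 to 0.41.

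**Figure D1:**
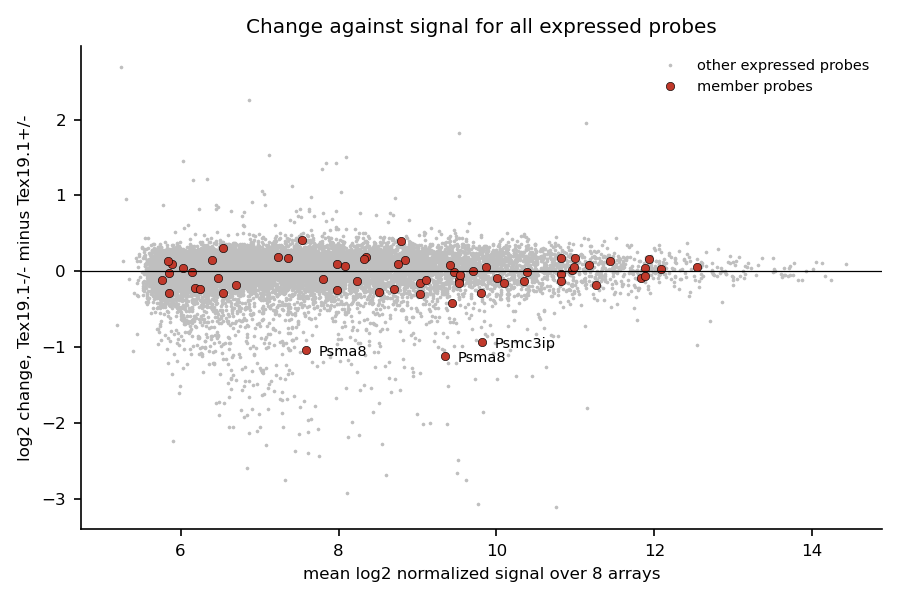
Log2 change, Tex19.1-/- minus Tex19.1+/-, against the mean log2 normalized signal over 8 arrays, for each of 19089 expressed probes. Red points are the 63 expressed probes of the proteasome symbols and grey points all others. The 2 Psma8 probes and the Psmc3ip probe stand near -1, and the other red points lie between -0.41 and 0.41.

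Psma8, the meiotic alpha subunit, was the only proteasome subunit gene called. Its brighter probe (ILMN_1234190) had log2 signals of 8.86, 8.67, 8.92 and 8.71 in Tex19.1-/- replicates 1 to 4, against 9.74, 10.04, 9.79 and 10.05 in Tex19.1+/- replicates 1 to 4. All 4 Tex19.1-/- animals were below all 4 Tex19.1+/- animals, with a gap wider than the spread within either genotype. The change was -1.12 (standard error 0.11), a signal 2.17-fold lower, with an adjusted p of 1.5e-04 from limma. The other Psma8 probe (ILMN_2757574) had 7.02, 7.13, 7.25 and 6.87 in Tex19.1-/- animals and 8.27, 8.31, 7.84 and 7.998 in Tex19.1+/- animals. Its groups did not overlap either, and its change was -1.04 (standard error 0.13, adjusted p = 5.9e-04 from limma). Both probes lost the call when arrays were only brought to a common median without quantile normalization (median scaling) (changes of -0.82 and -0.81, adjusted p = 0.48 and 0.15 from limma). They also lost it when signals under 0 were set to 0 (changes of -1.21 and -1.39, adjusted p = 0.013 and 0.025 from limma).

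Psma7, the alpha subunit of the core in somatic cells, did not pass the test. Its probe of higher signal (ILMN_2793488) had 10.94, 11.11, 11.17 and 11.13 in Tex19.1-/- animals, against 10.66, 11.13, 10.92 and 10.96 in Tex19.1+/- animals. The groups overlapped, and the change was 0.17 (95% interval -0.08 to 0.42, adjusted p = 0.57 from limma). The other Psma7 probe (ILMN_2630328) gave 0.18 (adjusted p = 0.50 from limma). The promoter of Psma7 is printed as the window of the paralog that did not pass the test, from 250 bases before to 50 bases after the RefSeq start on the minus strand (GRCm38.p6, chr2:180042415-180042714). Capitals mark the CCAAT motif in either direction, which occurs once in it.
Psma7: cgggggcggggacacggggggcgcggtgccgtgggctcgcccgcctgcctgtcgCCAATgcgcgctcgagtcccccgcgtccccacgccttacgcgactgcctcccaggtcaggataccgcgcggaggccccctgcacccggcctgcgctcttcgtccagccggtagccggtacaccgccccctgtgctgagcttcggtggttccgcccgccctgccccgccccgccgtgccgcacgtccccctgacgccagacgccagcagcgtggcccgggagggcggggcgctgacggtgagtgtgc

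The signals of the paralogs were compared within each animal, as Psma8 minus Psma7, expressed as the deviation from the mean of the 4 Tex19.1+/- animals. This deviation was -1.07, -1.43, -1.24 and -1.41 in Tex19.1-/- animals, against 0.09, -0.08, -0.12 and 0.10 in Tex19.1+/- animals. Every Tex19.1-/- value was below every Tex19.1+/- value. The Psma8 change minus the Psma7 change was -1.29 on the log2 scale (95% interval -1.54 to -1.04). The exact permutation test, two-sided, gave p = 0.029, the smallest that 4 animals against 4 allow, and p = 0.11 after Benjamini-Hochberg adjustment over the 4 pairs of genes compared in this way. The other probe pairings gave -1.21 to -1.29. The sequences of the probes were not compared, so whether a probe of one paralog also binds the transcript of the other was not tested.

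**Figure D2:**
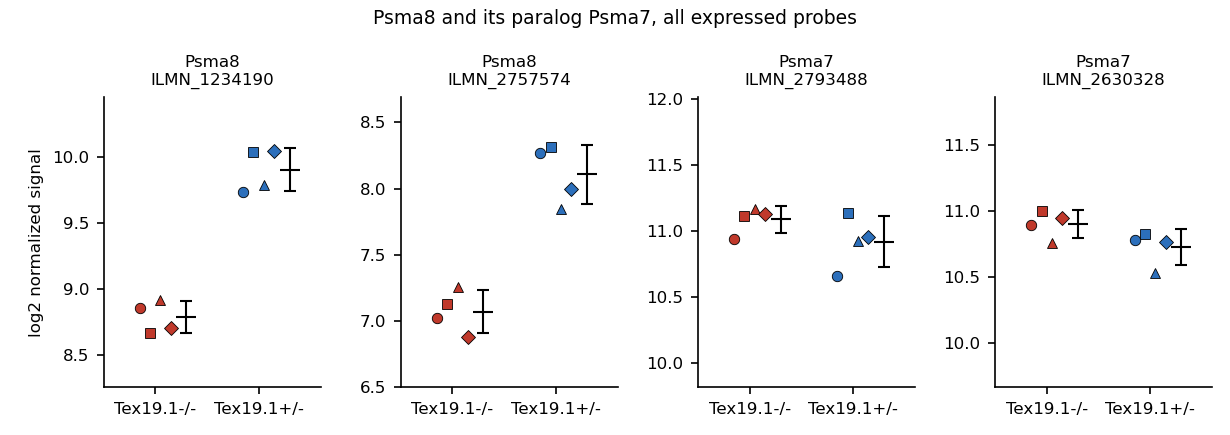
Log2 normalized signal of each expressed Psma8 and Psma7 probe in 4 Tex19.1-/- animals (red, left) and 4 Tex19.1+/- animals (blue, right), with marker shapes for replicates 1 to 4 and bars for the mean and SD. Each panel spans the same log2 range. The genotypes are separate at both Psma8 probes and overlap at both Psma7 probes.

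Genes of mid to late pachytene spermatocytes, a list chosen with earlier results of these data known, moved in the same direction as Psma8. Of 15 such genes 11 were expressed, and of these 7 were called lower and 0 higher by limma, with a median change of -1.60. Of all expressed probes 1.63% were called lower and 0.141% higher. With robust empirical Bayes and a trend on intensity 2 were called lower, and with median scaling or signals under 0 set to 0 the count was 0. Ldhc, the lactate dehydrogenase of male germ cells, changed by -3.11 and Piwil1, a Piwi protein of pachytene cells, by -2.76 (adjusted p = 7.5e-04 and 1.5e-04 from limma). The summed signal of the list was 6169 to 10218 in Tex19.1-/- animals and 17450 to 26699 in Tex19.1+/- animals. Adam2, Crisp2, Hspa1l and Mael were not detected in any array. Of 16 genes of early meiotic prophase 11 were expressed, with 1 called lower, Spo11 (change -0.63, adjusted p = 0.0042 from limma), 0 called higher and a median of -0.26. At an unadjusted limma p under 0.05, 5 of the 11 were lower and 0 higher, against 7.93% and 5.87% of all expressed probes. Dmc1, Hormad1, Syce2, Sycp1 and Sycp3 were not detected in any array, so their probes gave no measurement and the median leaves them out. The Spo11 call was lost with neqc background correction, median scaling or signals under 0 set to 0, and without Tex19.1-/- replicate 1, 2 or 4 or Tex19.1+/- replicate 2 or 3, each of which left 0 of the 11 called. Their summed signal was 3224 to 3476 in Tex19.1-/- animals and 3702 to 4423 in Tex19.1+/- animals. The part of these cells in the Psma8 result was not tested.

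Psmc3ip, the Hop2 gene, had a change close in size to that of Psma8. Its only probe (ILMN_2999654) had 9.60, 9.38, 9.40 and 9.03 in Tex19.1-/- animals, against 10.33, 10.48, 10.12 and 10.20 in Tex19.1+/- animals. The groups did not overlap, and the change was -0.93 (standard error 0.13, 1.91-fold lower, adjusted p = 0.0011 from limma). The call was lost with median scaling (change -0.62, adjusted p = 0.60 from limma) and with signals under 0 set to 0 (change -0.99, adjusted p = 0.039 from limma). Psme3ip1 had changes of -0.14 and -0.10 at its expressed probes and was not called. The Psmc3ip promoter is printed because this was the other gene of the set to be called (GRCm38.p6, chr11:101095386-101095685, minus strand, 250 bases before to 50 after the start). The CCAAT motif, in capitals, occurs once.
Psmc3ip: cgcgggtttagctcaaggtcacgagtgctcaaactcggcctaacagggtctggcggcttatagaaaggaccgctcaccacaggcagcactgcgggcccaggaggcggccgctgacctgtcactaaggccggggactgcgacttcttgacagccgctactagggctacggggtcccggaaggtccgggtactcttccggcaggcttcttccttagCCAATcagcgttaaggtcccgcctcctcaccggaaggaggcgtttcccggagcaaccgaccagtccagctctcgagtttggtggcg

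The other alpha ring genes, which form the gated entrance of the core, did not pass the test. Psma5 had 11.92, 11.74, 11.86 and 11.87 in Tex19.1-/- animals, against 11.98, 11.94, 11.90 and 11.80 in Tex19.1+/- animals, a change of -0.06 (95% interval -0.26 to 0.15). Psma4 had 11.16, 11.08, 10.86 and 10.93 in Tex19.1-/- animals, against 10.78, 11.38, 10.78 and 10.85 in Tex19.1+/- animals, a change of 0.06 (95% interval -0.24 to 0.36). Both pairs of groups overlapped, and the highest Psma4 value was that of a Tex19.1+/- animal, replicate 2. Psma2 had a change of 0.03. The adjusted p of these 3 genes was 0.84 or above from limma.

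The structural beta subunits, which carry no active site, showed changes as small as those of the alpha ring. Psmb4 had 12.52, 12.67, 12.54 and 12.55 in Tex19.1-/- animals, against 12.42, 12.62, 12.51 and 12.52 in Tex19.1+/- animals (change 0.05, 95% interval -0.15 to 0.25). Psmb2 had 11.93, 11.71, 12.04 and 11.93 in Tex19.1-/- animals, against 11.71, 11.75, 11.92 and 12.05 in Tex19.1+/- animals (change 0.04, 95% interval -0.20 to 0.28). The genotypes overlapped at both. Psmb1 and Psmb3 had changes of -0.04 and -0.01, and the adjusted p of the 4 genes was 0.86 or above from limma.

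The constitutive catalytic subunits Psmb5, Psmb6 and Psmb7 did not pass the test. Psmb5, which carries the chymotrypsin-like site, had 6.56, 6.66, 6.02 and 6.49 in Tex19.1-/- animals, against 6.87, 7.10, 6.13 and 5.99 in Tex19.1+/- animals. It was detected in 3 of 4 animals of each genotype and had the widest spread of the 3 genes (change -0.09, 95% interval -0.58 to 0.40, adjusted p = 0.91 from limma). Psmb6, with the caspase-like site, had 9.66, 9.82, 9.51 and 9.65 in Tex19.1-/- animals, against 10.26, 10.05, 9.78 and 9.69 in Tex19.1+/- animals at its brighter probe. The groups overlapped (change -0.29, adjusted p = 0.35 from limma), and the other Psmb6 probe (ILMN_2895862) gave 0.0065. Psmb7, with the trypsin-like site, had 10.87, 11.04, 10.90 and 11.06 in Tex19.1-/- animals, against 11.24, 10.96, 10.84 and 10.79 in Tex19.1+/- animals (change 0.01, adjusted p = 0.98 from limma). Its other 3 probes gave -0.09 to -0.13. At 1 of these, ILMN_2836147, every Tex19.1-/- animal was below every Tex19.1+/- animal (adjusted p = 0.64 from limma).

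The immunoproteasome subunits did not pass the test either. Psmb8 had 6.50, 6.41, 6.35 and 6.63 in Tex19.1-/- animals, against 6.35, 6.22, 6.25 and 6.49 in Tex19.1+/- animals (change 0.14, 95% interval -0.08 to 0.37, adjusted p = 0.61 from limma). Its groups overlapped, and its other probe was detected in 3 of 4 Tex19.1-/- and 0 of 4 Tex19.1+/- animals, with a change of 0.10 (adjusted p = 0.77 from limma) and no fold above 1 against the detection limit. Psmb9 had 5.76, 6.12, 5.51 and 5.99 in Tex19.1-/- animals, against 5.90, 5.80, 5.86 and 5.90 in Tex19.1+/- animals (change -0.02, adjusted p = 0.97 from limma). It was detected in 1 of 4 Tex19.1-/- and 0 of 4 Tex19.1+/- animals, so most of its values lay at the floor of the array. Psmb10 had the smallest p of the 3, with 8.35, 8.39, 8.42 and 8.44 in Tex19.1-/- animals, against 8.31, 8.36, 8.10 and 8.22 in Tex19.1+/- animals. Its lowest Tex19.1-/- value was just under its highest Tex19.1+/- value (change 0.16, 95% interval -0.05 to 0.36, adjusted p = 0.52 from limma), and its other probe gave 0.07.

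Each immunoproteasome subunit was set against the constitutive subunit that it replaces, within each animal. The difference of changes was 0.23 for Psmb8 minus Psmb5 (95% interval -0.59 to 1.06, exact p = 0.49, adjusted p = 0.49). It was 0.26 for Psmb9 minus Psmb6 (95% interval -0.12 to 0.65, exact p = 0.14, adjusted p = 0.23). It was 0.15 for Psmb10 minus Psmb7 (95% interval -0.08 to 0.37, exact p = 0.17, adjusted p = 0.23). None of the 3, and not Psma8 minus Psma7 either, had an adjusted p under 0.05 in the two-sided exact permutation test. A single pair at the smallest exact p of 0.029 is adjusted to 0.11, so the test could not call 1 pair alone. Each interval of the 3 immunoproteasome pairs holds 0, so 4 animals against 4 did not exclude a shift of either sign within it. The Psmb9 pair rests on a probe at the floor and turned in sign under median scaling (-0.031) and when signals under 0 were set to 0 (-0.37). The mean change of Psmb8, Psmb9 and Psmb10 was 0.09 and that of Psmb5, Psmb6 and Psmb7 was -0.12.

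**Figure D3:**
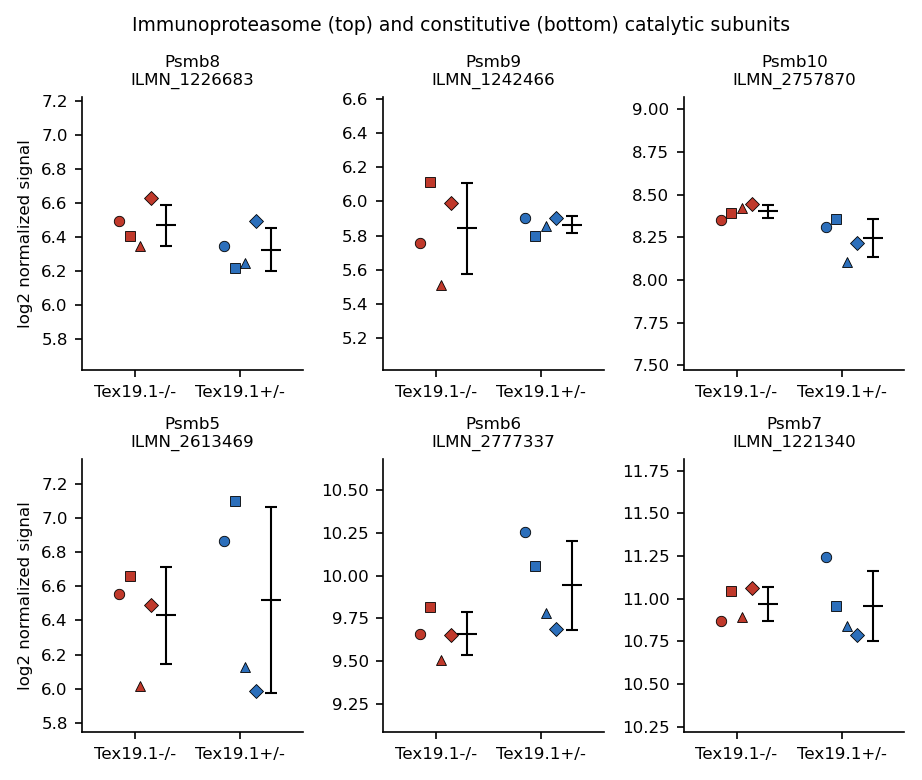
Log2 normalized signal of the immunoproteasome subunits (top row) above the constitutive subunits that they replace (bottom row), in 4 Tex19.1-/- animals (red, left) and 4 Tex19.1+/- animals (blue, right), with marker shapes for replicates 1 to 4 and bars for the mean and SD. Each panel spans the same log2 range, and the genotypes overlap in all 6 panels.

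Genes that make or feed peptides for antigen presentation, many of them induced by interferon together with the immunoproteasome, gave 0 calls among 10 expressed of 16 genes with a named probe (1 lower and 2 higher at an unadjusted p under 0.05), with a median of 0.13. H2-D1, a class I heavy chain, had a change of 0.29 (adjusted p = 0.19 from limma) and Tap2, a subunit of the peptide transporter, one of -0.29 (adjusted p = 0.26 from limma). Macrophage and leukocyte genes, which could bring in immunoproteasome transcripts, gave 0 calls among 7 expressed of 9 genes with a named probe (0 lower and 2 higher at an unadjusted p under 0.05). Their median was 0.21, and their summed signal was 1490 to 1811 in Tex19.1-/- animals and 1179 to 1598 in Tex19.1+/- animals, with Adgre1 and Ptprc not detected. Of all expressed probes 7.93% were lower and 5.87% higher at an unadjusted p under 0.05. The part of the macrophage and leukocyte genes in the values of Psmb8 and Psmb10 was not tested.

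The activators, which open the core without ATP, were close to 0. Psme1, a subunit of the interferon-inducible cap, had 9.42, 9.49, 9.44 and 9.44 in Tex19.1-/- animals, against 9.48, 9.31, 9.49 and 9.19 in Tex19.1+/- animals (change 0.08). Psme2, its partner, had 8.15, 8.08, 7.87 and 8.003 in Tex19.1-/- animals, against 8.11, 7.76, 8.04 and 7.83 in Tex19.1+/- animals (change 0.09). The genotypes overlapped at both. Psme3, the nuclear activator, had 9.45, 9.34, 9.66 and 9.37 in Tex19.1-/- animals, against 9.53, 9.62, 9.26 and 9.44 in Tex19.1+/- animals (change -0.01). Psme4, which in mice is used in spermatids to degrade acetylated histones, had 9.65, 9.70, 9.49 and 9.19 in Tex19.1-/- animals, against 9.60, 9.54, 9.55 and 9.56 in Tex19.1+/- animals (change -0.05). The Tex19.1-/- values of Psme4 lay on both sides of the tight Tex19.1+/- values. The adjusted p of the 4 genes was 0.77 or above from limma.

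The ATPase subunits of the regulatory particle all had changes below 0, but none was called. Psmc3 had 9.37, 9.43, 9.05 and 9.08 in Tex19.1-/- animals, against 9.84, 9.67, 9.67 and 9.41 in Tex19.1+/- animals. Its groups overlapped only through the lowest Tex19.1+/- animal (change -0.41, 95% interval -0.68 to -0.15, adjusted p = 0.11 from limma). Psmc5 had 8.42, 8.98, 8.53 and 8.42 in Tex19.1-/- animals, against 8.95, 8.92, 8.86 and 8.58 in Tex19.1+/- animals (change -0.24, and -0.28 at its other probe, adjusted p = 0.49 and 0.34 from limma). Psmc1, Psmc2 and Psmc4 had changes of -0.25, -0.18 and -0.14. The median of the 5 genes was -0.24, and 5 of 5 lay below 0. With median scaling 1 of 5 lay below 0 and 4 above, with a median of 0.03, when the median of all expressed probes was 0.14, so the common sign depends on the scaling.

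The subunits of the regulatory particle without ATPase activity were split in direction. Of 8 expressed genes, 6 had a change below 0 and 2 above, from -0.23 to 0.17, and 0 were called (0 of the 8 at an unadjusted p under 0.05). With median scaling 1 of 8 lay below 0 and 7 above. Psmd1, a large scaffold subunit, had 11.92, 12.14, 12.09 and 11.91 in Tex19.1-/- animals, against 11.76, 12.03, 11.87 and 11.73 in Tex19.1+/- animals (change 0.17, adjusted p = 0.54 from limma). Its probes disagreed, since a dimmer one (ILMN_2915861) gave -0.29 (adjusted p = 0.29 from limma). Psmd11, a subunit of the lid, had 6.18, 6.24, 5.85 and 6.25 in Tex19.1-/- animals, against 6.48, 6.56, 6.41 and 6.00 in Tex19.1+/- animals (change -0.23, adjusted p = 0.50 from limma). Psmd14, the deubiquitinase of the lid, had a change of -0.01.

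Among the chaperones that assemble the regulatory particle, Psmd10 came nearest to a call. Psmd10, also known as gankyrin and encoded on the X chromosome, had 9.04, 9.001, 8.94 and 8.997 in Tex19.1-/- animals, against 8.44, 8.75, 8.66 and 8.53 in Tex19.1+/- animals at its brightest probe (ILMN_3003308). Every Tex19.1-/- animal was above every Tex19.1+/- animal (change 0.40, 95% interval 0.18 to 0.61), with an adjusted p of 0.047 from limma, which misses the limit. The other probes gave 0.41 (ILMN_1239384, no overlap, adjusted p = 0.058 from limma) and 0.30 (ILMN_2694080, overlap, adjusted p = 0.33 from limma). Psmd10 is the only one of the 49 genes on the X chromosome. The 544 expressed X-linked probes had a median change of 0.16, and 12 of them (2.21%) were called higher, whereas the 15678 autosomal probes had a median of 0.02 and 3 (0.0191%) were called higher. Probes without an assigned chromosome, or on the Y or mitochondrial chromosome, are in neither group. Of all 19089 expressed probes 27 were called higher. The part of X linkage in the Psmd10 values was not tested. The window from 250 bases before to 50 after the Psmd10 start is printed (GRCm38.p6, chrX:140956662-140956961, minus strand). Among the subunit, activator and chaperone genes with a change above 0, Psmd10 had the smallest p. The window holds the CCAAT motif 3 times, in capitals, once forward and otherwise as its reverse complement.
Psmd10: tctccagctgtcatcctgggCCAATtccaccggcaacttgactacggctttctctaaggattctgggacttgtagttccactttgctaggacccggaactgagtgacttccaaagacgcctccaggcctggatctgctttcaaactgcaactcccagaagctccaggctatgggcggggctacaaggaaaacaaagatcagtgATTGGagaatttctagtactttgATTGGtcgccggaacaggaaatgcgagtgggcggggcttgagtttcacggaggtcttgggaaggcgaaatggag

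The other assembly chaperones gave no call. Psmd9 had 5.75, 5.88, 5.68 and 5.51 in Tex19.1-/- animals, where it was detected in 0 of 4, against 6.03, 6.19, 5.90 and 5.85 in Tex19.1+/- animals, where it was detected in 2 of 4 (change -0.28, adjusted p = 0.27 from limma). Psmd5, which binds the ATPase ring during assembly, had a change of 0.19. Psmg1, which with Psmg2 guides the building of the alpha ring, had 8.97, 8.75, 8.81 and 8.98 in Tex19.1-/- animals, against 9.18, 9.25, 9.05 and 9.25 in Tex19.1+/- animals. All Tex19.1-/- animals were below all Tex19.1+/- animals (change -0.31, 95% interval -0.52 to -0.09, adjusted p = 0.15 from limma). Psmg2 had changes of -0.15 to -0.22 at its 3 probes. Psmg3, a later partner in the same process, had 8.33, 8.27, 8.63 and 8.52 in Tex19.1-/- animals, against 8.07, 8.19, 8.27 and 8.47 in Tex19.1+/- animals (change 0.18, adjusted p = 0.55 from limma).

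**Figure D4:**
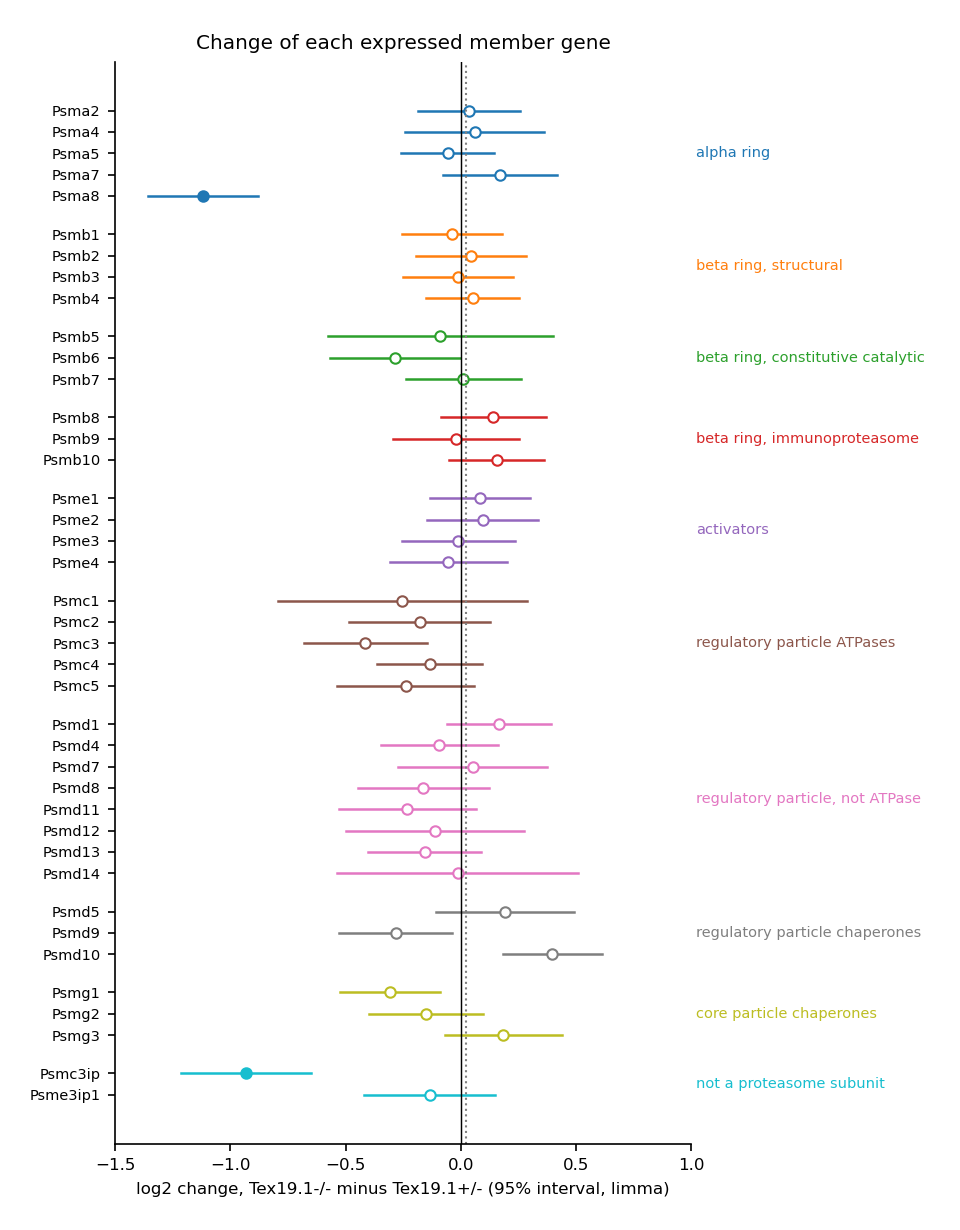
Log2 change, Tex19.1-/- minus Tex19.1+/-, of each of 40 expressed genes with its 95% interval from limma, at the expressed probe of highest mean signal, grouped by role. Filled points were called, the solid line is 0 and the dotted line is the median of all expressed probes (0.024). Psma8 and Psmc3ip stand apart at -1.12 and -0.93.

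**Figure D5:**
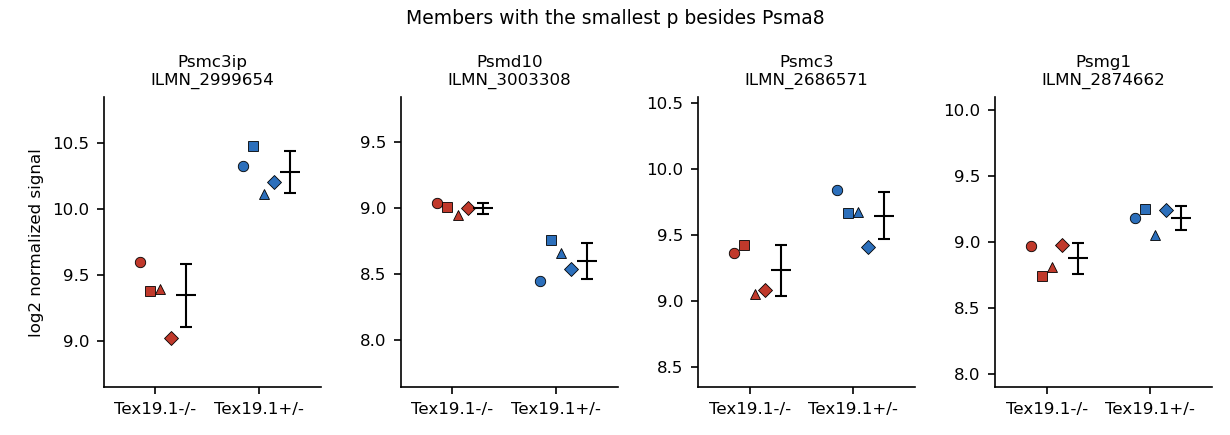
Log2 normalized signal of Psmc3ip, Psmd10, Psmc3 and Psmg1 in 4 Tex19.1-/- animals (red, left) and 4 Tex19.1+/- animals (blue, right), with marker shapes for replicates 1 to 4 and bars for the mean and SD. Each panel spans the same log2 range. Only Psmc3ip was called, and the genotypes are also separate at Psmd10 (higher) and Psmg1 (lower).

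Partners of the proteasome outside the symbol rule showed no call among 14 expressed of 17 genes with a named probe (2 lower and 0 higher at an unadjusted p under 0.05), with a median of 0.08. The smallest p values were those of Uchl5, a deubiquitinase bound to the regulatory particle (change -0.30, adjusted p = 0.20 from limma), and Vcp, the ATPase that extracts ubiquitinated proteins (change -0.22, adjusted p = 0.30 from limma). Of 6 ubiquitin and activating enzyme genes only Uba6 had a named probe, which was expressed, with a change of 0.16 (adjusted p = 0.61 from limma). Spermatogonial genes (9 expressed of 12 with a named probe, median 0.15), Sertoli cell genes (8 of 9, median 0.11) and Leydig cell genes (4 of 5, median 0.25) also gave 0 calls each. At an unadjusted p under 0.05, 2, 1 and 1 of them were higher and 0 were lower. Of all expressed probes 5.87% were higher and 7.93% lower at that limit. With the replicate number as a block 1 spermatogonial gene was called higher.

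RefSeq promoter windows were found for 41 of the 49 genes, 39 of them subunits, activators or chaperones with 42 windows of 300 bases. The letters were searched on both strands and set beside all 32851 windows of that length. CCAAT occurred in 33.3% of the 42 windows and 37.4% of all windows. TGACNNNGC, the core of the antioxidant response element bound by Nrf factors that drive proteasome genes, occurred in 14.3% and 12.4%, in Psmb5, Psmb6, Psmc6, Psmd12, Psmd9 and Psme4. TTCNNNGAA, the gamma-activated site bound by Stat factors, occurred in 7.14% and 8.3%, in Psmb8, Psmd2 and Psmg1. AACNG, the core bound by Myb factors, occurred in 85.7% and 80.3%. Matches of different motifs were allowed to overlap, and a match describes the letters and not a bound site.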

How the data were processed

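Total RNA of whole testis was hybridized to 1 Beadchip array for each of 8 animals. The authors used BeadStudio (no version is named) to subtract background, and deposited a linear signal intensity and a detection p-value for each of 45281 probes. The authors also deposited log2 values made by log transformation and quantile normalization in lumi. The recomputed values of the members differed from these by at most 0.00083. The methods of the study name wild type and heterozygous controls, whereas the labels give all 4 as Tex19.1+/-.

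Here the signals of an array were raised so that the lowest was 1, converted to log2 and quantile-normalized. The 19089 probes with a detection p under 0.01 in 1 array or more were tested with lmFit and eBayes of limma 3.58.1 (R 4.3.3), without a block, with Benjamini-Hochberg adjustment over these probes. Of these steps only the limma fit was tested on simulated data. The shift, the normalization and the detection filter were not tested. Differences between paired genes were tested with an exact two-sided permutation of the 8 animals. The 95% intervals of these differences are t intervals with a pooled variance and 6 degrees of freedom. Precision is limited by the number of arrays. Plots were made in matplotlib 3.10.9.

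Symbols and chromosomes come from the platform annotation and RefSeq (GRCm38.p6). A gene is represented by its expressed probe of highest mean signal. The members and the gene lists were chosen with earlier results of these data known. Values for each animal are given for Psma8, Psma7, Psmb5 to Psmb10, Psme1 to Psme4, every member called and, in each other role group, the 2 expressed genes of smallest p. Of the other gene lists, genes called are named or, with none, the 2 of smallest p, except that only Ldhc and Piwil1 of the pachytene list and no gene of the somatic and spermatogonial lists are named with values. Probes that differ from the representative one, and genes whose animals did not overlap, were singled out after their values were seen.

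Animals of both genotypes are numbered 1 to 4, and the meaning of the numbers is not stated. Deviations from the genotype mean correlated between animals of the same number at 0.21, 0.52, 0.10 and 0.23, each above 0.1, so a fit with the number as a block was run as an alternative, while the reported tests use no pairing. Animals numbered 3 and 4 correlated more closely with an animal of another number (up to 0.45). Alternatives covered background correction, scaling, low signals, the detection filter, empirical Bayes, array weights, the replicate block, the deposited log2 table and each animal left out.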

Additional observations from a re-analysis of the deposited data

Results flagged for a closer look

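Psma4 (ILMN_2771944), an alpha ring subunit, had a log2 signal of 11.38 in Tex19.1+/- replicate 2, apart from the nearest Tex19.1+/- animal at 10.85. The gap made up 0.885 of the range of the 4 animals. Of 60 groups of 4 animals looked at in this way, 1 stood out, and chance alone sets apart about 1 in 20.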

How the results depend on the processing

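Psma8 was lower at its brighter probe in 20 of 20 alternative settings (-1.21 to -0.82) and called in 18, Psmc3ip was lower in 20 of 20 (-1.01 to -0.62) and called in 18, and the other Psma8 probe was called in 17 of 19. The alternatives for the detection filter, empirical Bayes and the replicate block can alter a call but not the change of a probe. Median scaling and setting signals under 0 to 0 each left 0 member probes called, against 3, and 1 and 21 probes called over the whole array, against 338. With each animal left out in turn, 3 member probes were called each time, and 171 to 340 over the array. With the replicate block the whole-array count was 518, and the block changed no call of a named member but called 1 spermatogonial gene higher, against 0. Median scaling gave a member median of 0.23, when the median of all expressed probes was 0.14. The cause of these shifts was not tested.

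Psma8 minus Psma7 was below 0 in 20 of 20 alternative settings (-1.38 to -1.24, adjusted exact p from 0.11 to 0.50, the highest with the replicate block, where 4 pairs cannot give a p under 0.125). Psmb8 minus Psmb5 and Psmb10 minus Psmb7 stayed above 0 in 20 of 20, down to 0.00019 and 0.05. These counts include alternatives for the detection filter, empirical Bayes, array weights and the replicate block, which by construction leave each pair difference unchanged. The deposited log2 table nearly repeats the main values, so none of these settings bears on the sign. Psmb9 minus Psmb6 turned to -0.031 with median scaling and to -0.37 with signals under 0 set to 0. For the 27 named member probes that were not called, 531 values under the alternatives gave 0 calls, and 35 turned in sign. With median scaling these were Psma5 (0.36), Psmb5 (0.082), Psmb6 at ILMN_2777337 (0.034), Psmb9 (0.0035), Psmc5 (0.034), Psme3 (0.29) and Psme4 (0.24). With cyclic loess they were Psmb6 at ILMN_2895862 (-0.019) and Psmb7 (-0.034), and with array weights the same probes (-0.023 and -0.032) and Psme3 (0.035). With neqc it was Psmb9 (0.031), and with the probes of a gene averaged Psma5 (0.037) and Psmb7 (-0.082). Leaving out single animals turned Psmb2 (-0.0060 to 0.11), Psmb5 (-0.27 to 0.11), Psmb6 at ILMN_2895862 (-0.12 to 0.14), Psmb7 (-0.045 to 0.11), Psmb9 (-0.067 to 0.091), Psme3 (-0.078 to 0.044) and Psme4 (-0.12 to 0.052). Apart from median scaling, the turns were at probes with main changes from -0.09 (Psmb5) to 0.04 (Psmb2), which 8 arrays do not resolve. The turns under median scaling were not all of changes near 0. There Psmb6 at ILMN_2777337 and Psmc5 had main changes of -0.29 and -0.24, and Psma5 turned to 0.36. Median scaling also gave a median of 0.14 over all expressed probes, against 0.024.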
